A study of Mus musculus with 6 samples.

Results

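This account covers 10 genes of the chemokine and lymphocyte programme in mouse liver, out of 41838 genes with a row in the expression table. They were taken by gene symbol, and no measured value entered the rule itself, but the symbols were chosen with earlier results of these data known. There were 4 chemokines that draw T and NK cells (Cxcl9, Cxcl10, Cxcl16 and Ccl5) and 6 lymphocyte markers (Cd3d, Cd3e, Cd3g, Cd8a, Nkg7 and Gzma). All 10 symbols were found once.

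Messenger RNA was sequenced in 6 livers, 3 from Alkbh5flox/flox mice (flox below) and 3 from Alkbh5-HKO mice (HKO below), which some labels write as Alkbh5-CKO. The flox allele is made for conditional deletion by a recombinase, and ALKBH5 is an enzyme that removes the N6-methyladenosine mark from RNA. The animals were 9 weeks old per the series text, whereas the sample protocol speaks of 9 weeks on normal chow. The promoter that drove the deletion, the sex, the feeding state and the strain could not be taken from the labels. The tissue was whole liver, so fewer cells of a type and less RNA per cell cannot be told apart in any value below.

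Chemokines are small secreted proteins that guide leukocytes along a gradient to a tissue. CXCL9 and CXCL10 are induced by interferons, are made by macrophages, endothelium and stressed hepatocytes, and act on CXCR3 of activated T cells and NK cells. CXCL16 is a membrane-bound ligand of CXCR6, the receptor that keeps NKT cells and resident T cells in the liver sinusoids, and CCL5 is made largely by T and NK cells themselves. CD3 delta, epsilon and gamma are the signalling chains of the T cell receptor, CD8 alpha is the coreceptor of cytotoxic T cells, and NKG7 and granzyme A belong to the cytotoxic granules of NK cells and CD8 T cells.

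Promoter windows of the RefSeq annotation of GRCm38.p6, each with 250 bases before and 50 bases after the start site, were matched for 8 of the 10 members. Those of Ccl5 and Cxcl16 were not matched. The windows of Cxcl9, Cxcl10 and Gzma are shown because these 3 genes had the smallest unadjusted p-values among the members. They are written 5′ to 3′ on the gene's own strand, and capitals mark the core of the interferon-stimulated response element (GAAANNGAAA) or the consensus of NF-kB, a transcription factor of inflammation.
Cxcl10, chr5:92348840-92349139, minus strand: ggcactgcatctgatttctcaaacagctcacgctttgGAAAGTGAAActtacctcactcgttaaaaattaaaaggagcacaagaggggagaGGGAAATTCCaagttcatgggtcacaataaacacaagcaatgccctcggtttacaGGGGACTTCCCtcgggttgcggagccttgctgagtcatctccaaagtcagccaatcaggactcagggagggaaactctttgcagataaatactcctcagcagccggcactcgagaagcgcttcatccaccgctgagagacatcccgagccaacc
Gzma, chr13:113100932-113101231, minus strand: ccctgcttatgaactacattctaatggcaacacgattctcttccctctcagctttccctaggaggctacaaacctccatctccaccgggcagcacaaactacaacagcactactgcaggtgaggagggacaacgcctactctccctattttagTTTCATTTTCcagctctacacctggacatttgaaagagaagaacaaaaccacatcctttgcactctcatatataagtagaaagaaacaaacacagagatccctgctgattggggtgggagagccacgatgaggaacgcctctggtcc
Cxcl9, chr5:92328030-92328329, minus strand: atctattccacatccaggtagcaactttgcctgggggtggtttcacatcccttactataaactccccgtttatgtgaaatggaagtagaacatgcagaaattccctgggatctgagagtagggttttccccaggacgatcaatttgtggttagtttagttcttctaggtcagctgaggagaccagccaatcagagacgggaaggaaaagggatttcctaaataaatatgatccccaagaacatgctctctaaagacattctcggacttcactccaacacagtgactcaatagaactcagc

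Each motif was searched on both strands. The response element core stood 213 bases before the start of Cxcl10 on the gene's strand and, on the other strand, 97 bases before the start of Gzma. It was found in 2 of the 8 member windows and in 3.44% of all 32851 windows. The NF-kB consensus was found in the Cxcl10 window alone among the members, with its first bases at -159, -104 and -103, the last pair of which overlap each other. Of all windows, 8.46% held it. The Cxcl9 window held neither of these letter patterns. The gamma-activated site (TTCNNNGAA), also searched, was found among the members in Cd3d and Nkg7 only, and in 8.3% of all windows. The windows of Cxcl9, Cxcl10 and Gzma did not hold it. A match is a description of the letters and not a measured binding site.

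Expression is given as the FPKM that the authors deposited, that is, fragments scaled to the length of the gene and to the size of the library. Since many members had few reads, the read count behind each value was recovered from the FPKM and the deposited gene length, and depth was 14907384 to 17034754 reads per library. A difference is given as log2 of FPKM + 0.1, HKO minus flox, from a limma fit over all 15046 genes with a mean of at least 5 recovered reads per library, with Benjamini-Hochberg (BH) adjustment over those genes. Alkbh5 itself was at 14.8 to 17.8 FPKM in flox and 0.443 to 0.508 in HKO libraries (log2 -4.84, SE 0.17, BH adjusted p = 4.18e-05 by limma), so the labels and the targeted transcript matched in every library. Values listed per library below stand in the order of library numbers 1, 2 and 3. Albumin, the defining transcript of hepatocytes, was at 26035 to 32095 FPKM in flox and 33905 to 39984 in HKO, without overlap (log2 0.35, BH adjusted p = 0.343 by limma). On the first principal component the HKO libraries were spread over 52.4, 29.3 and 10.5, and flox library 3 stood apart from its group (-16.7, against -38.7 and -36.9), as it did on the second (-29.6, against 21.3 and 15.5). On the second, HKO library 1 was at 36.3 and the other HKO libraries at -29.2 and -14.3.

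None of the members passed the adjusted threshold of 0.05 by limma. Of the 10 members, 8 had enough reads for the fit, and each of these 8 lay higher in HKO livers on average, where 50% of all tested genes did. In 5 of them (Cxcl9, Cxcl10, Ccl5, Nkg7 and Gzma) each HKO library lay above each flox library, and 12.4% of all tested genes were apart in that direction, 13.2% of genes with a mean of at least 20 reads (all but Nkg7 of these 5) and 9.04% of those below. Ccl5 and Gzma reached a mean of 20 reads only through HKO, where they were high. Their place in the 13.2% class is thus no support for a difference. At an unadjusted p under 0.05, 6 members were higher by limma (these 5 and Cd8a) and 8.27% of all genes were. Limma on precision-weighted reads (voom), an alternative test, passed 0 members with BH adjustment and placed 6 at an unadjusted p under 0.05, against 10.3% of genes. Few genes passed at all: 21 as higher, or 0.14%, and 17 as lower, or 0.113%. The median log2 difference was 0.96 over the 8 tested members and 0.00 over all tested genes. Cd8a met the read minimum only through HKO, where it was high, so its place in these counts and the median is no support for a difference. The members were chosen with earlier results of these data known, so these counts describe them and carry no test. Without HKO library 1 the 5 members had log2 differences of 0.91 (Cxcl9), 1.60 (Cxcl10), 1.10 (Ccl5), 0.88 (Nkg7) and 1.85 (Gzma), with limma BH adjusted p-values of 0.179, 0.226, 0.289, 0.260 and 0.199 in that order. Without flox library 3 the differences were 0.90, 2.22, 1.03, 0.91 and 1.88, with limma BH adjusted p-values of 0.129, 0.0549, 0.246, 0.188 and 0.119. With 3 libraries against 3, an exact permutation test of a single gene could not fall below 0.10.

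**Figure D1:**
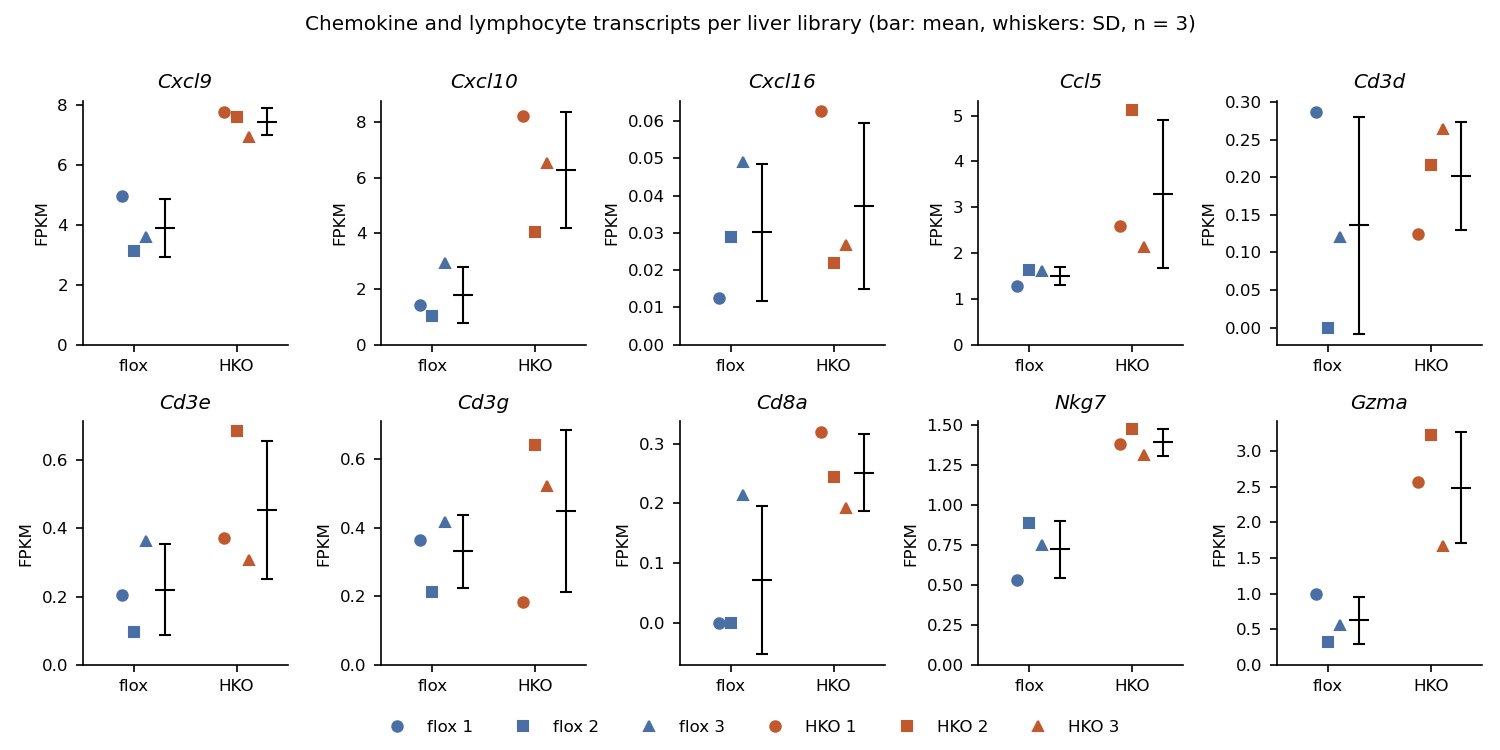
FPKM of the 10 members in each of the 6 liver libraries, flox in blue and HKO in orange, with the symbol giving the library number and the black bar the mean ± SD (n = 3). In Cxcl9, Cxcl10, Ccl5, Nkg7 and Gzma all orange points lie above all blue points, and in the CD3 chains, Cd8a and Cxcl16 they overlap.

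Cxcl9 (gene 17329, chromosome 5, 92321331 to 92328079, minus strand, GRCm38.p6) was the best covered member, with 126 to 405 reads per library. It was at 4.97, 3.12 and 3.57 FPKM in flox and at 7.76, 7.60 and 6.93 in HKO. The HKO values were close to each other and all above the highest flox value. The mean went from 3.89 ± 0.964 to 7.43 ± 0.440 (SD, n = 3), a log2 difference of 0.94 with a 95% interval of 0.49 to 1.40 (BH adjusted p = 0.0893 by limma). By voom the difference was 1.03 (BH adjusted p = 0.0593). Its exact Poisson intervals, which cover counting error only, were 204 to 265 reads for flox library 1, the highest of its group, and 269 to 338 for HKO library 3, the lowest of its group.

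Cxcl10 (gene 15945, chromosome 5, 92346638 to 92348889, minus strand) lies 18558 bases from Cxcl9. It was at 1.41, 1.05 and 2.94 FPKM in flox and at 8.23, 4.06 and 6.54 in HKO. Flox library 3 stood above the other flox libraries and HKO library 2 below the other HKO libraries, which left a gap of 2.94 to 4.06 between the groups. The mean was 1.797 ± 1.005 in flox and 6.28 ± 2.10 in HKO, 3.49 times as high. The log2 difference was 1.82 (SE 0.40, interval 0.90 to 2.74, BH adjusted p = 0.0967 by limma). With 1 library left out it ranged from 1.52 without flox library 2 (BH adjusted p = 0.279 by limma) to 2.22 without flox library 3 (0.0549). Cxcl10 lies in full within the span of Art3 on the opposite strand, which had 6 to 25 reads per library. The labels do not say whether counting used strand, so reads of this pair cannot be told apart.

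Per length, Cxcl9 exceeded Cxcl10 by 3.53, 2.98 and 1.22 times in flox, whereas the ratio was 0.944, 1.87 and 1.06 in HKO. The ratios of the groups overlapped, since flox library 3 lay below HKO library 2.

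Ccl5 (gene 20304, chromosome 11, 83525778 to 83530518, minus strand) was at 1.28, 1.62 and 1.61 FPKM in flox and 2.58, 5.13 and 2.13 in HKO. The transcript is short, so these levels rest on 11 to 14 reads in flox and on 22, 50 and 17 in HKO. HKO library 2 stood far above the other HKO libraries, and the lowest HKO library was only 3 reads above the highest flox library. The log2 difference was 0.98 (interval 0.24 to 1.73, BH adjusted p = 0.21 by limma). Without HKO library 2 it was 0.62 (BH adjusted p = 0.37 by limma). The span of the long noncoding RNA Gm32650 covers Ccl5 on the opposite strand and held 0 to 3 reads.

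Cxcl16 (gene 66102, chromosome 11, 70454232 to 70459984, minus strand) was hardly detected. It had 1, 2 and 4 reads in flox and 5, 2 and 2 in HKO, or 0.0125 to 0.0629 FPKM, and was not tested. Summed over a group, there were 7 reads in flox (exact 95% Poisson interval 2.81 to 14.4) and 9 in HKO (4.12 to 17.1), so a difference was not detectable at this depth. In the annotation of the file the gene shares 363 bases with Zmynd15 on the opposite strand, and the labels do not say how reads in shared bases were counted. Adam10 and Adam17, proteases that release CXCL16 from the membrane, were at 5.41 ± 0.721 and 3.78 ± 0.340 FPKM in flox and at 5.76 ± 1.08 and 3.66 ± 0.0929 in HKO (SD, n = 3), and neither passed.

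Gzma (gene 14938, chromosome 13, 113093827 to 113100981, minus strand), a serine protease of cytotoxic granules, had the largest log2 difference of the tested members in the fit described above. Cxcl10 exceeded it with a pseudocount of 1 (1.39 against 1.10), without flox library 3 (2.22 against 1.88) and without HKO library 2 (2.10 against 1.69), and Cd8a with a pseudocount of 0.02 (2.55 against 2.04) and by voom (3.23 against 2.08). It was at 0.988, 0.328 and 0.556 FPKM in flox and 2.56, 3.23 and 1.67 in HKO. These are 14, 4 and 8 reads against 36, 52 and 22, and the groups did not overlap. The mean was 3.99 times as high in HKO, with a log2 difference of 1.89 (SE 0.39, interval 0.995 to 2.79, BH adjusted p = 0.0876 by limma). With a pseudocount of 1, which shrinks low genes, the log2 difference was 1.10. Cdc20b, whose span on the opposite strand covers the gene, had 0 reads in every library.

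Nkg7 (gene 72310, chromosome 7, 43437138 to 43438246, plus strand), a membrane protein of the same granules, was at 0.534, 0.885 and 0.751 FPKM in flox and 1.38, 1.48 and 1.31 in HKO. Behind these stood 7, 10 and 10 reads against 18, 22 and 16. The HKO libraries lay close together and above the flox libraries. The log2 difference was 0.88 (SE 0.24, interval 0.31 to 1.44, BH adjusted p = 0.159 by limma), and 0.48 with a pseudocount of 1.

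The CD3 chains were at the limit of detection and overlapped between the groups. Their genes lie in a row on chromosome 9, with Cd3g (gene 12502, 44969572 to 44980431, minus strand) 1337 bases from Cd3d (gene 12500, 44981769 to 44987052, plus strand), and Cd3e (gene 12501, 44998735 to 45009664, minus strand) 11682 bases beyond. Cd3e had 5, 2 and 9 reads in flox and 9, 19 and 7 in HKO, or 0.220 ± 0.134 and 0.453 ± 0.201 FPKM (log2 0.82, interval -0.11 to 1.75, BH adjusted p = 0.375 by limma). HKO library 2 set the upper end, and without it the log2 difference was 0.54, while without flox library 2, the lowest, it was 0.50.

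Cd3g had 6, 3 and 7 reads in flox and 3, 12 and 8 in HKO, with HKO library 1 as low as the lowest flox library. Its log2 difference was 0.27 (interval -0.70 to 1.23, BH adjusted p = 0.785 by limma). It changed sign without HKO library 2, was 0.05 without flox library 2, and stood at 0.69 without HKO library 1. Cd3d had 7, 0 and 3 reads in flox and 3, 6 and 6 in HKO and was not tested, having a mean of 4.17 reads. The 0 in flox library 2 has an exact 95% Poisson upper limit of 3.69 reads. Added together, the 3 chains had 18, 5 and 19 reads in flox and 15, 37 and 21 in HKO, and flox library 2 and HKO library 2 formed the lower and upper ends.

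Cd8a (gene 12525, chromosome 6, 71373427 to 71379171, plus strand) had 0, 0 and 11 reads in flox and 16, 14 and 9 in HKO. Flox library 3 lay within the range of the HKO libraries, and the other flox libraries had no read (exact 95% Poisson upper limit 3.69 reads in each). On its own the flox mean of 0.0715 ± 0.124 FPKM would not have passed the read minimum, and the gene entered the fit through HKO (0.252 ± 0.0641). The log2 difference was 1.25 (interval 0.18 to 2.32, BH adjusted p = 0.255 by limma). Its size depended on the constant added to low values, at 0.23 with a pseudocount of 1, 2.55 with 0.02 and 3.23 by voom, and with 1 library left out it ranged from 0.97, without flox library 1 or 2, to 1.80, without flox library 3 (BH adjusted p from 0.544 to 0.058 by limma).

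**Figure D2:**
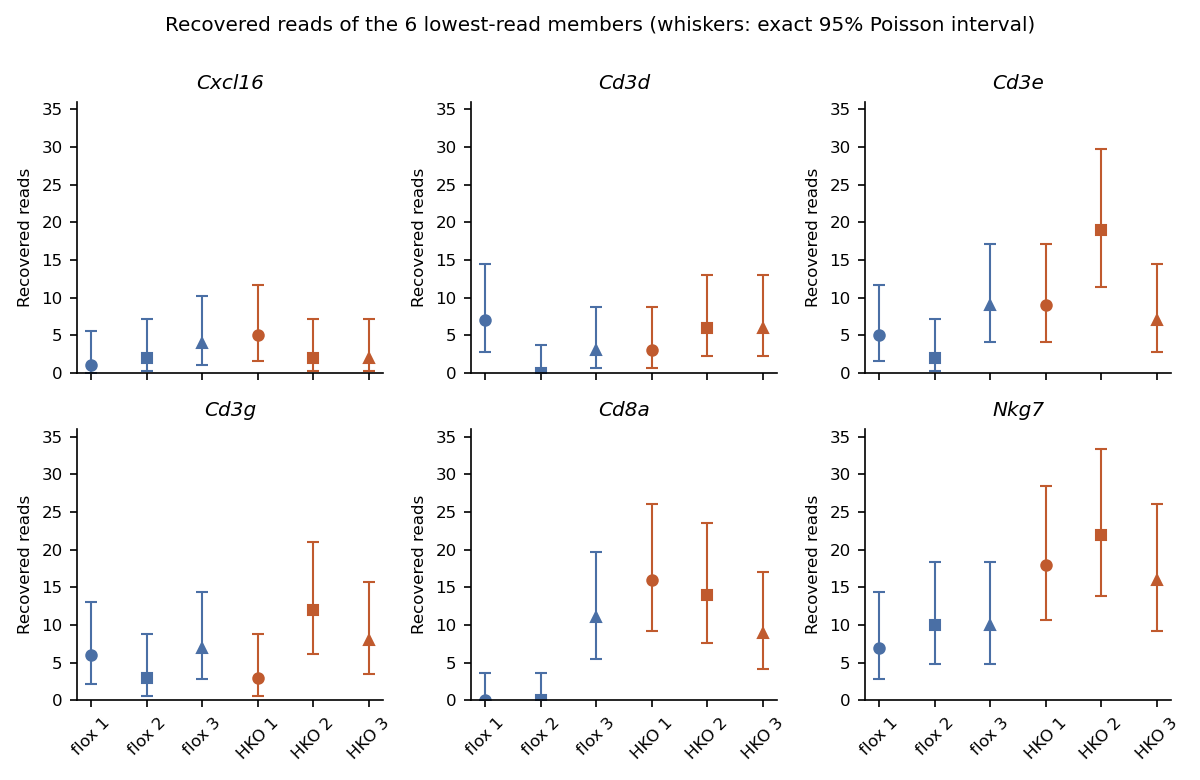
Recovered reads of the 6 members with the fewest reads in each library (flox blue, HKO orange), with exact 95% Poisson intervals as whiskers. Many intervals overlap between the groups, but those of Cd8a in flox libraries 1 and 2 (0 reads, upper limit 3.69) lie below those of all HKO libraries, and that of Cd3e in flox library 2 lies below that of HKO library 2.

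The libraries did not order the members alike. HKO library 2 was the highest of the 6 libraries for 5 members (Ccl5, Cd3e, Cd3g, Nkg7 and Gzma), and HKO library 1 for 4 (Cxcl9, Cxcl10, Cxcl16 and Cd8a), although it was the lowest for Cd3g. Flox library 2 held the lowest value for 5 members (Cxcl9, Cxcl10, Cd3d, Cd3e and Gzma) and shared it with flox library 1 for Cd8a. The 6 lymphocyte markers summed to 39, 19 and 48 reads in flox and 85, 125 and 68 in HKO. Nkg7 and Gzma together gave 21, 14 and 18 reads in flox and 54, 74 and 38 in HKO, so the granule genes made up the larger part of the difference in that sum. For each read of a CD3 chain there were 0.778, 0.8 and 0.421 reads of Gzma in flox and 2.4, 1.41 and 1.05 in HKO. These sums and ratios are descriptions of genes chosen with results known and were not tested.

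The order of the members by level was Cxcl9, Cxcl10, Ccl5, Gzma and Nkg7, with mean FPKM over all libraries of 5.66, 4.04, 2.39, 1.56 and 1.06. Next came Cd3g, Cd3e, Cd3d and Cd8a at 0.389, 0.337, 0.169 and 0.162, and Cxcl16 at 0.0337. Within the groups the order differed in places: in flox Nkg7 stood above Gzma, and in HKO Cd3e stood above Cd3g and Cd8a above Cd3d. With the members ranked within each group, the gap between neighbours among the CD3 chains and Cd8a was below the larger SD of the pair. In flox the same held for Cxcl10 and Ccl5, Nkg7 and Gzma, Gzma and Cd3g, and Cd8a and Cxcl16. In HKO it held for Cxcl9 and Cxcl10 and for Ccl5 and Gzma.

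**Figure D3:**
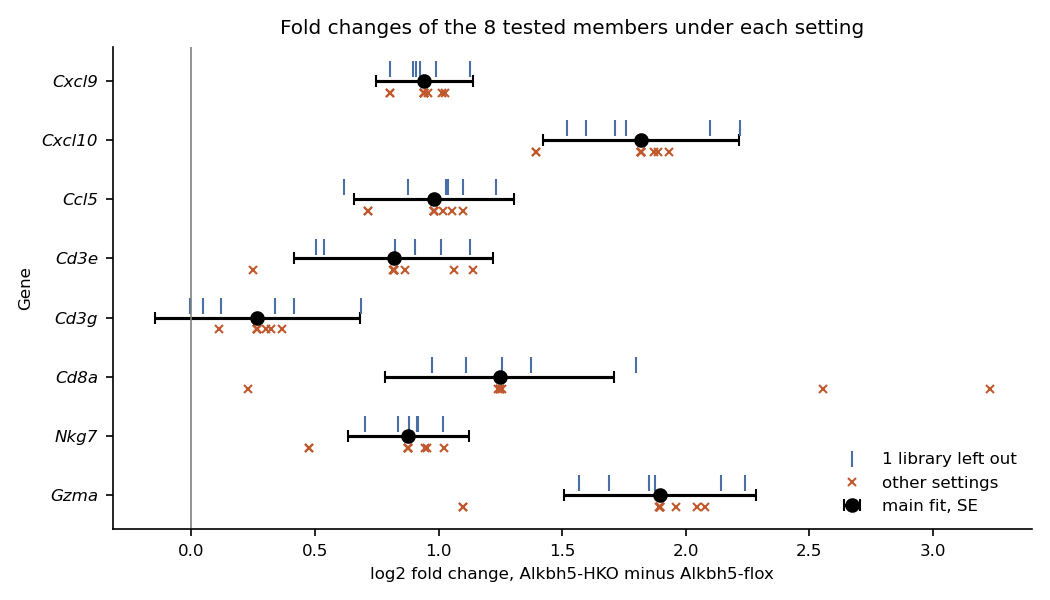
Log2 difference, HKO minus flox, of the 8 tested members, with the black point and its SE from the fit described above, blue ticks for fits with 1 library left out and orange crosses for other settings. Gzma and Cxcl10 lie farthest to the right, Cd3g is the 1 gene with a tick below 0 (-0.01), and Cd8a spreads from 0.23 to 3.23.

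Other chemokines, 29 on a list, had 13 tested members, of which 7 were higher and 6 lower, and 0 passed by limma with BH adjustment (2 at an unadjusted p under 0.05; median log2 0.27). These 2 were higher, as were 8.27% of all tested genes at that threshold. Ccl7, named after its values were seen, met the read minimum only through HKO, so the median is no support for a difference. Their summed level was 82.2 to 90.3 FPKM in flox and 94.7 to 107 in HKO, without overlap. That separation came from Ccl9, and without Ccl9 the sums of the groups overlapped. The most abundant was Cxcl12, a homing signal for CXCR4 cells, at 46.9 ± 1.29 FPKM in flox and 41.0 ± 3.91 in HKO (log2 -0.20, BH adjusted p = 0.524 by limma). Ccl9, a myeloid chemokine, was at 13.6, 15.4 and 15.2 FPKM in flox and 41.8, 28.0 and 25.8 in HKO, which did not overlap (log2 1.08, BH adjusted p = 0.0748 by limma). Cxcl1, which attracts neutrophils, was at 6.35 ± 3.73 and 9.00 ± 1.83, with overlapping groups. No read in any library was listed for Ccl11, Ccl19, Ccl21a, Cxcl5 and Pf4. Ccl2, a monocyte attractant chosen after its values were seen, was the other gene at an unadjusted p under 0.05 (0.577 and 1.43 FPKM, log2 1.10, BH adjusted p = 0.27 by limma).

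Chemokine receptors were nearly all low, with 11 of 18 tested and a summed level of 4.68 to 5.59 FPKM in flox and 4.47 to 6.02 in HKO. None passed by limma with BH adjustment, and 1 had an unadjusted p under 0.05. This was Ackr2, a scavenger of inflammatory CC chemokines, at 1.39 ± 0.401 in flox and 0.682 ± 0.214 FPKM in HKO (log2 -0.92, BH adjusted p = 0.223 by limma), each HKO library lying below each flox library. Ackr1, which presents chemokines on endothelium, was at 0.416 ± 0.199 and 0.696 ± 0.138.

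Other markers of T cells gave 8 higher and 5 lower genes among 13 tested of 24, and 0 passed (2 at an unadjusted p under 0.05, limma; median log2 0.40). These 2 were higher, as were 8.27% of all tested genes at that threshold. The T cell receptor kinase Zap70 was at 1.75 ± 0.228 and 2.46 ± 1.03 FPKM, the transcription factor Tcf7 at 1.70 ± 0.616 and 2.29 ± 0.541, and the receptor constant chain Trbc2, which has a near-identical copy, at 1.19 ± 1.06 and 1.30 ± 0.358. In all 3 the groups overlapped. The 2 genes at an unadjusted p under 0.05, named after their values were seen, were the kinase Lck, with 2, 0 and 4 reads in flox and 10, 12 and 6 in HKO, and the T cell gene Themis, with 1, 4 and 3 against 12, 11 and 12. Both met the read minimum only through HKO, where they were high, so that count and the list median are no support for a difference. Cd247 and Skap1, also named after their values were seen, met it only through flox. The summed level of the list was 5.41 to 9.83 FPKM in flox and 8.74 to 10.5 in HKO.

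Other NK and cytotoxic markers had 6 higher and 1 lower among 7 tested of 19, and again 0 passed (2 at an unadjusted p under 0.05, limma; median log2 0.43). These 2 were higher, as were 8.27% of all tested genes at that threshold. Klrd1, named after its values were seen, met the read minimum only through HKO, so the median is no support for a difference. Granzyme B (Gzmb) was at 0.175, 0.254 and 0.344 FPKM in flox and 0.661, 1.54 and 0.941 in HKO, without overlap (log2 1.64, BH adjusted p = 0.0956 by limma). The activating receptor Klrk1 was at 0.249 ± 0.0791 and 0.732 ± 0.362 (log2 1.17, BH adjusted p = 0.234 by limma). Its groups nearly touched, at 0.327 FPKM in flox library 1 (18 reads) and 0.332 in HKO library 3 (17 reads). Il2rb, a receptor chain for interleukins of NK and T cells, was at 0.515 ± 0.0664 and 0.752 ± 0.289 with overlap. The list summed to 2.47 to 2.69 FPKM in flox and 3.58 to 6.31 in HKO, with HKO library 2 at the top.

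**Figure D4:**
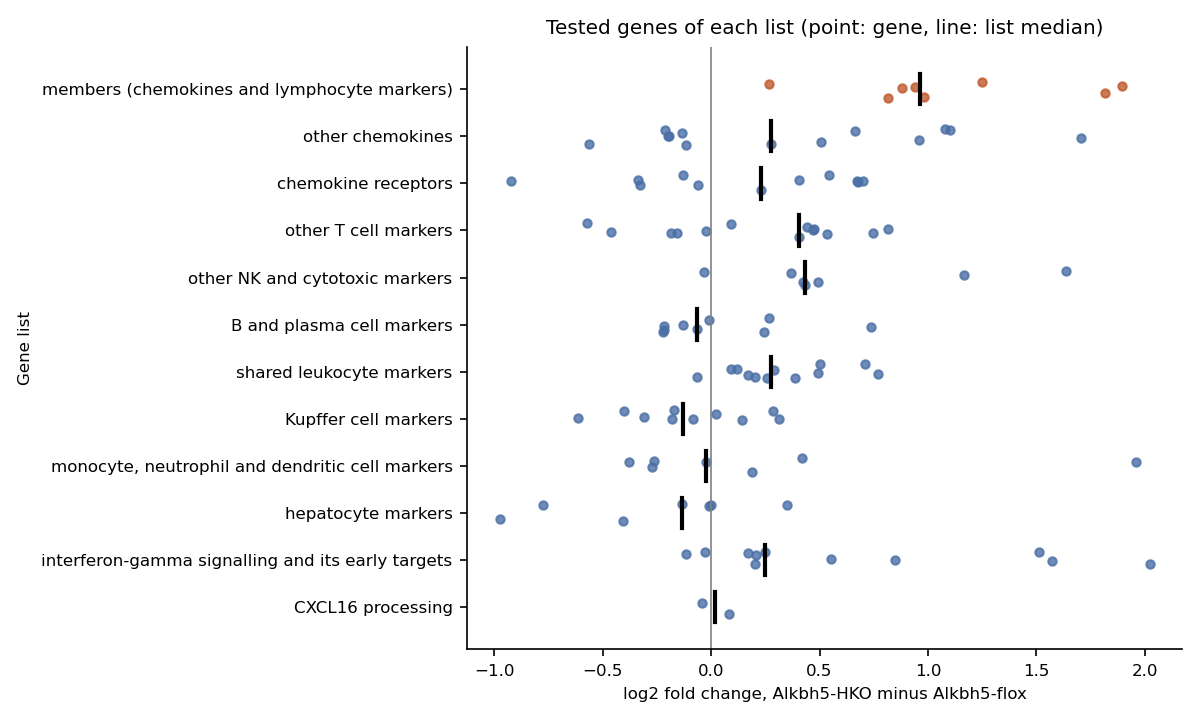
Log2 difference, HKO minus flox, of each tested gene by list, with the list median as a black line and the 8 tested members in orange at the top. The member median is 0.96, against 0.27 for other chemokines, 0.40 for other T cell markers and 0.43 for other NK and cytotoxic markers. Each of these lists holds genes that met the read minimum only through HKO: Cd8a, Ccl7, Lck and Themis, and Klrd1, in that order. The medians are therefore no support for a difference.

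Markers of other blood cells had medians near 0. Of 9 tested B and plasma cell markers 3 were higher and 6 lower (median log2 -0.06), of 10 Kupffer cell markers 4 and 6 (-0.13), and of 7 tested markers of monocytes, neutrophils and dendritic cells 3 and 4 (-0.02). None passed by limma with BH adjustment, and each of these lists had 1 gene at an unadjusted p under 0.05. This gene was higher in the B cell and myeloid lists and lower in the Kupffer list. Of all tested genes 8.27% were higher at that threshold. The B cell list summed to 3.31 to 6.55 FPKM in flox and 3.17 to 6.83 in HKO, and the Kupffer list to 189 to 283 and 192 to 346. The myeloid list summed to 40.2 to 75.0 and 43.7 to 55.9. In the last list Ly6c2, chosen after its values were seen, was at 0.506 and 2.55 FPKM without overlap (log2 1.96, BH adjusted p = 0.15 by limma). It marks inflammatory monocytes and is also carried by memory CD8 T cells, and it has a near-identical relative, so its reads are uncertain where they were shared. Hepatocyte markers, 7 tested, were higher in 1 and lower in 6, and 0 passed by limma with BH adjustment (0 at an unadjusted p under 0.05; median log2 -0.13). Their sum was 46272 to 57697 FPKM in flox and 51461 to 55029 in HKO. Albumin was higher and the apolipoprotein Apoa1 lower in each HKO library than in each flox library, so they moved this sum in opposite directions. Apoa1 was at 10724 ± 1183 and 6822 ± 3083 FPKM, with HKO library 1 the lowest at 3298. The cytochrome P450 enzyme Cyp2e1 was at 4560 ± 944 and 3389 ± 232. No marker of these lists or of the T and NK cell lists was at 0 in every library.

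Shared leukocyte markers, all 12 of them tested, were higher in 11 and lower in 1 (median log2 0.27), and 0 passed (1 at an unadjusted p under 0.05, limma). This 1 was higher, as were 8.27% of all tested genes at that threshold. Cd52 was at 8.72 ± 1.73 and 9.54 ± 5.30 FPKM, Arhgdib at 3.30 ± 0.978 and 4.26 ± 0.562, and Coro1a at 2.69 ± 0.653 and 3.37 ± 1.11. The summed level was 31.3, 20.9 and 30.2 FPKM in flox and 26.0, 44.6 and 30.4 in HKO. HKO library 2, the highest library for 5 members, was also the highest for this list and the Kupffer list, and flox library 2 the lowest for both. The part of these library differences in the lymphocyte markers was not tested. In HKO library 1 the leukocyte sum lay below that of flox libraries 1 and 3, which rested on Cd52. This gene was at 9.86, 6.73 and 9.59 FPKM in flox and at 3.48 in HKO library 1. Without Cd52 the sum in HKO library 1 would lie above that of every flox library. That of HKO library 3, where Cd52 was at 11.8 FPKM, would then lie below those of flox libraries 1 and 3, so the groups would still overlap. Gzma, Nkg7, Ccl5, Cxcl9 and Cxcl10 also lay above every flox library in HKO library 1.

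**Figure D5:**
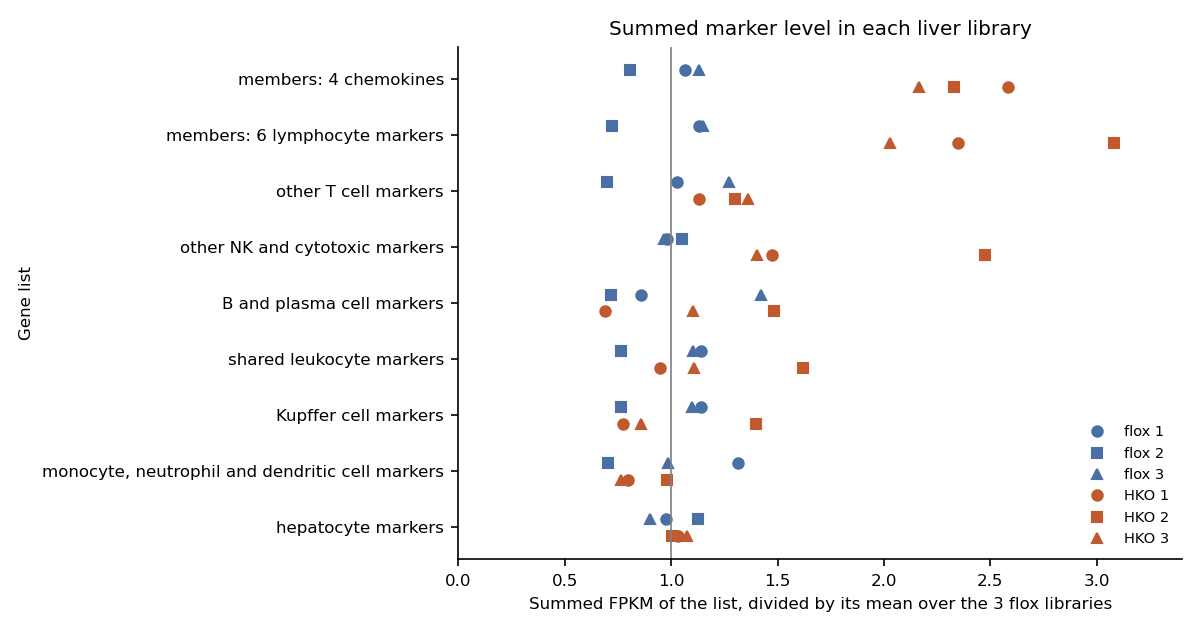
Summed FPKM of each list in each library, divided by the mean of the 3 flox libraries (flox blue, HKO orange, symbol for library number). The 4 chemokines, the 6 lymphocyte markers and the other NK and cytotoxic markers are separated between the groups. The other T cell, leukocyte, B cell, Kupffer and myeloid sums overlap, and the hepatocyte sum stays near 1.

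Interferon-gamma, which T and NK cells secrete, signals through JAK kinases and induces Cxcl9 and Cxcl10. Of 11 tested genes of this pathway and its early targets 9 were higher and 2 lower, and 0 passed by limma with BH adjustment (4 at an unadjusted p under 0.05, all higher; median log2 0.25). Of all tested genes 8.27% were higher at that threshold. The list was chosen with earlier results known, so its counts carry no test. The kinase Jak1 was at 17.3 ± 1.78 FPKM in flox and 19.4 ± 2.34 in HKO (SD, n = 3), and the receptor chain Ifngr2 at 11.9 ± 2.68 and 11.0 ± 2.30, both with overlap. Chosen after their values were seen, the checkpoint ligand Cd274 was at 0.651 and 2.91 FPKM (log2 2.02, BH adjusted p = 0.153 by limma) and the JAK inhibitor Socs1 at 0.311 and 1.25 (log2 1.57, BH adjusted p = 0.182 by limma), each without overlap of FPKM. For Cd274 the groups nearly touched, at 1.21 FPKM in flox library 3 (72 reads) and 1.23 in HKO library 3 (67 reads). Its separation thus depended on the scaling to library size. Ido1, another target, had 0 reads in all libraries. These targets also respond to type I interferon, so the list does not tell the interferons apart.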

How the data were processed

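The series text says that read pairs were aligned to GRCm38.p6 with HISAT2 2.0.5 and counted per gene with featureCounts 1.5.0-p3, while CASAVA and DESeq2 1.20.0 appear in the submitters' processing notes. The authors deposited FPKM for 41838 genes, 230 of them without a name. FPKM times gene length was a whole multiple of 1 step for 100% of values in each library (tolerance 0.001), which gave the reads back. The authors' library size was 0.925 to 1.08 times their sum.

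Computed here were limma 3.58.1 fits (R 4.3.3, trend and robust options, statmod 1.5.0) on log2(FPKM + 0.1) of the 15046 genes with a mean of at least 5 reads, with no covariate. A minimum of 1 FPKM would have left 5 of the 10 members untested. Members and the 11 gene lists were chosen with earlier results of these data known. The members, Alkbh5, the 3 most abundant genes of each list and up to 3 that passed are named by rule. Some genes named by that rule are not reported here.

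The fit was tested on simulated reads before use. Libraries of a group differed by a chi-square of 28.3 to 63.0 per degree of freedom, so none was a copy. The labels speak of independent biological replicates. The exact Poisson intervals cover counting error only. The intervals of log2 differences come from the limma fit and include variation between libraries.
Alternatives covered the pseudocount (0.02 or 1), the read minimum, the scaling, the test (voom, or no trend), the replicate number as a block and each library left out.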

Additional observations from a re-analysis of the deposited data

How the results depend on the processing

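No member passed limma with BH adjustment as higher or lower under any of the 16 alternatives. The counts of all genes that passed moved more: 38 as reported, 22 with a pseudocount of 0.02, 1 with no filter, 85 with a mean of at least 20 reads, 3 without the trend and robust options, 143 by voom (93 higher and 50 lower, 65% higher against 55.3% as reported) and 9 with the replicate block. With 1 library left out they ranged from 1 to 41, at 2 without flox library 1, 1 without flox library 2, 3 without HKO library 1 and 2 without HKO library 2. The median log2 of the tested members was 0.96 as reported, 0.59 with a pseudocount of 1 and 1.40 with a mean of at least 20 reads, where 4 members were tested. Of these 4, Ccl5 and Gzma met that minimum only through HKO, so the larger median is no support for a difference. Of the values of single genes 136 kept direction and side of the threshold and 1 reversed, Cd3g, at -0.00529 without HKO library 2 within a range of -0.00529 to 0.687 with 1 library left out, for which the cause was not tested. Deviations from the group mean correlated at 0.0735, -0.137 and -0.0628 between libraries sharing a number, which gave no sign of pairing by replicate number. With 3 libraries in a group these values cannot exclude a pairing. Under the replicate block no member passed (Cxcl10 had a BH adjusted p of 0.102 by limma). Members under 20 reads are limited by counting: the 3 reads of Cd3g in HKO library 1 carry an exact 95% Poisson interval of 0.619 to 8.77.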
